A study of Mus musculus with 2 samples.

Results

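The genes described here are 34 genes of glucose uptake, glycolysis and pyruvate handling, taken by gene symbol from a table of 23276 genes measured in the ventricles of embryonic mouse hearts. Of the 34, 33 had a row under their own symbol and the pyruvate kinase gene Pkm2 had its row under the current symbol Pkm, a synonym in RefSeq. The rule for the genes uses their function and no measured value, though the group was chosen with earlier results of these data known. The study compared ventricles of Fendrr KO embryos, in which both alleles of the long non-coding RNA gene Fendrr had been disrupted by homologous recombination in embryonic stem cells, with ventricles of wild-type (WT) embryos. Both groups were at stage E12.5, on a mixed C57BL/6 x 129SV background, and both were made by tetraploid complementation, where the embryo itself grows from the injected stem cells. The number of stem cell clones is not given in the sources used here. Each group is 1 library of ribosomal RNA-depleted total RNA from 4 pooled ventricles. No difference below therefore has a replicate check or a test, and "higher" and "lower" describe the KO library relative to the WT library. The libraries were run separately on the sequencer and their bases were called in different ways, so that genotype, embryo pool and run cannot be told apart.

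Glycolysis splits 1 glucose into pyruvate through a chain of cytosolic enzymes. Entry is set by the glucose transporters and by hexokinase, the committed step is phosphofructokinase, and most steps have several isoenzymes that differ between tissues, such as the muscle forms Pfkm, Pgam2 and Eno3. Pyruvate is then reduced to lactate, which leaves the cell through monocarboxylate transporters, or enters the mitochondrion and is oxidised by the pyruvate dehydrogenase complex, which the Pdk kinases switch off. The heart of the mid-gestation embryo is known to depend largely on glycolysis, and oxidation of fatty acids gains weight later. Many of these genes are known targets of the hypoxia-inducible factors.

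Values are in FPKM, that is fragment counts divided by transcript length and by the library's mapped fragments, so that levels can be compared between genes. At low values the FPKM of a gene times its transcript length moved in steps of 1 fragment. The step size corresponded to a depth of about 16.5 M (mega) mapped fragments in the KO library and 13.01 M in the WT library, if the transcript lengths used were near those of GENCODE. By the same measure Pdhb rested on about 1840 fragments in KO and 2636 in WT, Pgam1 on 4774 in KO and 5437 in WT, and Pdk2 on 197 in KO and 114 in WT. The lowest gene, Pfkfb4, rested on at most 29 fragments in KO and 17 in WT. Fendrr gave no check of the genotype, since neither library had a value above 0 for 1110050K14Rik, the earlier symbol of that gene. A list of 12 cardiomyocyte markers, all of them expressed, summed to 25552 FPKM in KO and 26004 FPKM in WT. Single markers of that list differed more than the sum: Myl3 was at 1651 FPKM in KO and 2671 FPKM in WT, and Tnnt2 at 2174 FPKM in KO and 1524 FPKM in WT. Among the other lists, cushion mesenchyme and fibroblast genes summed to 751 FPKM in KO and 614 FPKM in WT with 11 of 12 above the median ratio of all genes, liver and yolk sac genes to 33.4 FPKM in KO and 9.32 FPKM in WT with albumin listed at 0 in both, leukocyte genes to 75.6 FPKM in KO and 54.1 FPKM in WT, and erythroid genes to 5568 FPKM in KO and 5133 FPKM in WT. Most of the leukocyte difference was Lyz2, at 58.9 FPKM in KO and 41.9 FPKM in WT, and 3 of the 8 expressed leukocyte genes had a ratio below 0. The erythroid sum was carried by Hba-a1, at 2122 FPKM in KO and 1583 FPKM in WT, while 7 of the 10 expressed erythroid genes had a ratio below 0 and the globin copy Hba-a2 was listed at 0 in KO and at 139 FPKM in WT. Skeletal muscle genes, of which the early heart also uses some, summed to 211 FPKM in KO and 164 FPKM in WT, with Myf5 listed at 0 in both. Most of that difference was Ckm, at 84.6 FPKM in KO and 45.8 FPKM in WT. Other lists were lower in KO or close: smooth muscle genes summed to 669 FPKM in KO and 749 FPKM in WT, and neural genes to 5.83 and 6.08. Endothelial and endocardial genes summed to 316 FPKM in KO and 310 FPKM in WT, and epicardial genes to 105 and 102. In bulk tissue, fewer cells of a type and less RNA per cell cannot be told apart, and the part of cell composition in the values below was not tested. The Y-linked gene Ddx3y was at 0.786 FPKM in KO and 17.7 FPKM in WT.

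All 34 genes were detected in both libraries. Their mean levels ran from 0.435 FPKM for Pfkfb4 to 1366 FPKM for Gapdh, and 5 genes (Aldoa, Gapdh, Pgk1, Pkm and Ldha) were above 500 FPKM in both. Together the 34 genes made up 1.79% of all FPKM in KO and 1.73% in WT. The plot of levels by gene shows a high tier with the main enzymes of the pathway, and a low tier of a few FPKM or less with the Pfkfb regulators, Aldoc, Eno2, Pdk2 and Pdk4.

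**Figure D1:**
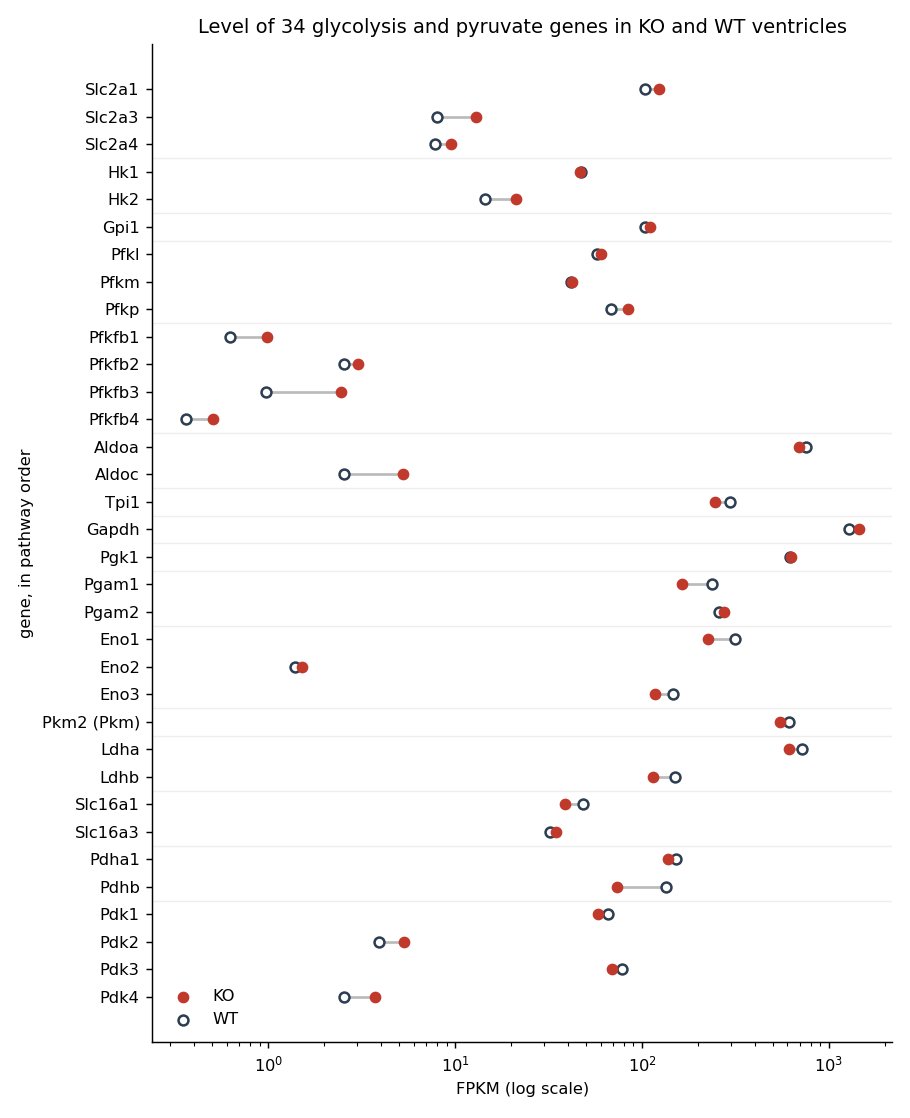
FPKM (log scale) of the 34 genes in pathway order, with filled points for the KO library and open points for the WT library, and 1 value per library. KO points lie to the right for the transporters and for the low regulators, and to the left for most enzymes from Tpi1 to Pdhb. Most genes do the same: 67.0% of all expressed genes were lower in KO, and 72.4% of those at 100 FPKM and over. The longest lines belong to Pfkfb3 (2.45 FPKM in KO and 0.979 in WT), Aldoc (5.29 and 2.56) and Pdhb (73.7 and 133.9).

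Each gene was given the ratio log2((KO + 1)/(WT + 1)) of its FPKM values. The added 1 shrinks the ratios of low genes. Only genes that averaged 1 FPKM or more across the pair of libraries, here called expressed, were counted. This held for 32 of the 34 genes and for 11349 of all genes. Pfkfb1 and Pfkfb4 fell short of it, and Pfkfb3 passed through its KO value. At a ratio of at least 1.5-fold, 3 of the 32 genes were higher in KO (Slc2a3, Pfkfb3 and Aldoc), against 1.54% of all 11349 genes. In the other direction 1 of 32, Pdhb, was at least 1.5-fold lower, against 3.60% of all genes. No gene of the 32 was 2-fold apart on this scale, where 0.467% of all genes were 2-fold higher and 0.388% were 2-fold lower.

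The libraries differed in overall scale, with a median log2 ratio of -0.11 over all 11349 genes, and 33.0% of them had a ratio above 0. Among the 32 genes, 19 lay above that median, where 50.0% of all genes do by construction, and the median of the 32 was 0.044, or 0.15 above that of all genes. With the median of all genes brought to 0, Hk2 joined the genes at least 1.5-fold higher and the shares of all genes past the limit became 2.67% higher and 1.69% lower. Under the 6 scalings compared, the deposited one included, 20 of the 34 genes were higher in KO in every one and 11 were lower in every one. The sign of the other 3, Hk1, Aldoa and Pdha1, depended on the scaling. The scalings mostly move all genes together, so a sign kept under all of them is not a separate check of direction. The 20 include Pfkfb1 and Pfkfb4, and the share of all genes that kept their sign was not counted.

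**Figure D2:**
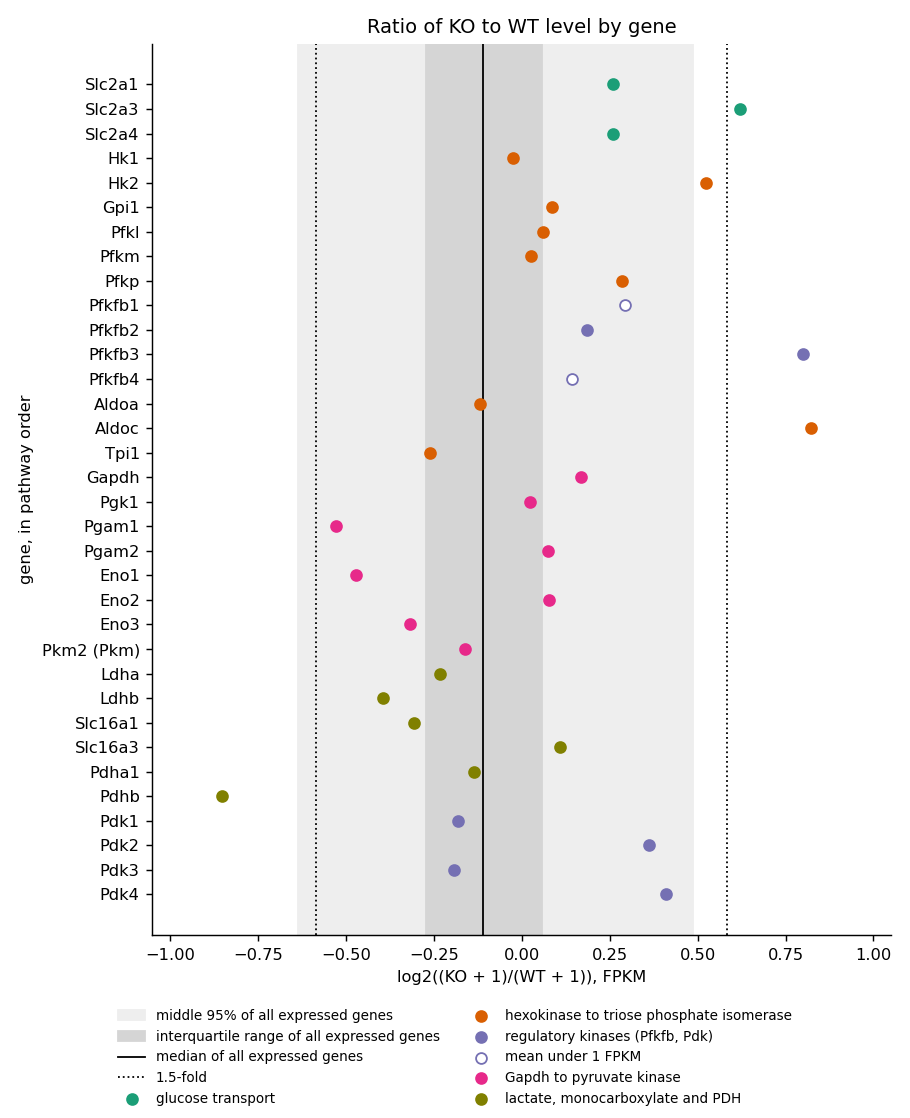
Log2 ratio of KO to WT on the log2(FPKM + 1) scale for each gene in pathway order, coloured by part of the pathway, with open points for Pfkfb1 and Pfkfb4 (mean under 1 FPKM). The shaded bands hold the interquartile range and the middle 95% of all expressed genes, the solid line is their median of -0.11, and dotted lines mark 1.5-fold; Slc2a3, Hk2, Pfkfb3 and Aldoc lie above the 95% band and Pdhb below it.

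The direction of the difference went with the place in the pathway and also with the level of the gene. By place, all 3 transporters and 7 of the 9 expressed genes from hexokinase to triose phosphate isomerase lay above the median of all genes, 4 of 8 from Gapdh to pyruvate kinase did, and 1 of 6 genes of lactate, monocarboxylates and pyruvate dehydrogenase did. Of the expressed regulatory kinases of the Pfkfb and Pdk families, 4 of 6 did. By level, all 9 genes with a mean under 20 FPKM lay above the median, and 5 of the 15 with a mean of at least 100 FPKM did. Over all genes the same share was 57.6% at 1 to 5 FPKM, 47.9% at 5 to 20 FPKM, 43.0% at 20 to 100 FPKM and 38.1% at 100 FPKM and over. The median log2 ratio of the 15 abundant genes was -0.16, and that of all 525 genes at this level was -0.18. For the 6 genes between 1 and 5 FPKM the median was 0.39, against -0.063 for all 4081 genes there. Pfkfb3, which passed the limit of 1 FPKM through its KO value, is among these 6 and among the 9. Some of the 6 also rest on few fragments, such as Eno2 with between 11 and 70 in KO and between 8 and 51 in WT.

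**Figure D3:**
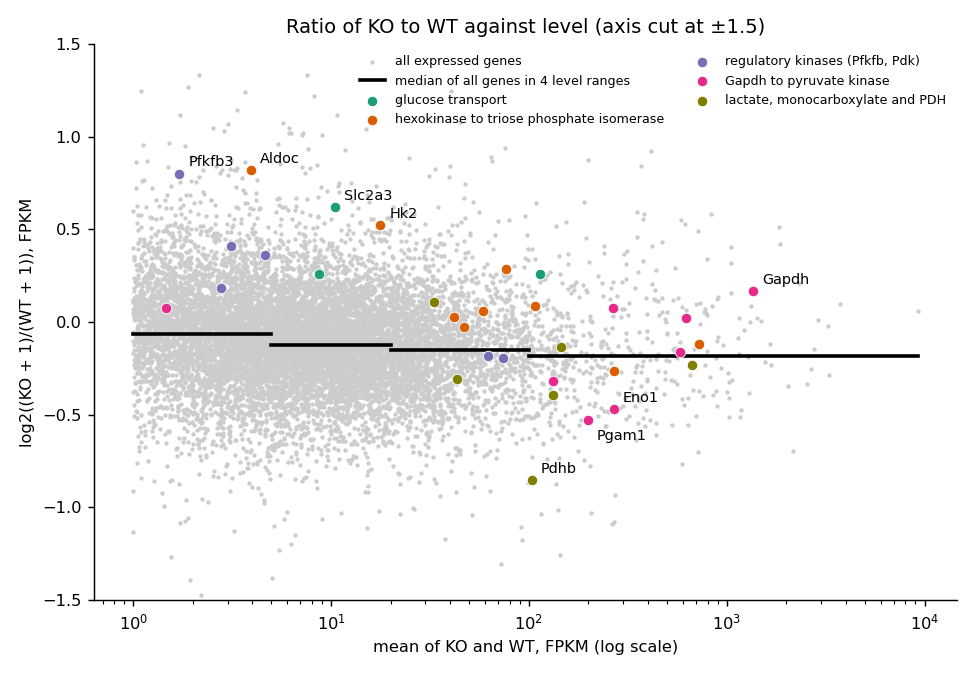
Log2 ratio of KO to WT on the log2(FPKM + 1) scale against the mean of both libraries in FPKM (log scale), for all expressed genes (grey) and the 32 expressed genes of the pathway (coloured by part of the pathway). Black bars are medians of all genes in 4 level ranges and step down from -0.063 to -0.18 with level; 41 genes beyond 1.5 on the vertical scale are outside the plot.

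The glucose transporters were higher in KO. Slc2a1, which encodes GLUT1, the main transporter of embryonic tissues, was at 124.0 FPKM in KO ventricles and 103.4 FPKM in WT ventricles, a log2 ratio of 0.26. Slc2a3, which encodes the high-affinity transporter GLUT3, was at 12.9 FPKM in KO and 8.03 FPKM in WT (log2 ratio 0.62), a ratio that 1.36% of all expressed genes reached or passed. The insulin-responsive muscle and fat transporter gene Slc2a4 was at 9.52 FPKM in KO and 7.80 FPKM in WT (log2 ratio 0.26). All 3 kept this sign under each scaling, which is no separate check because the other scalings mostly raise KO. The sum of the 3 was 146 FPKM in KO and 119 FPKM in WT. Slc2a1 made up most of it, with 84.7% in KO and 86.7% in WT.

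At the hexokinase step the isoenzymes differed from each other. Hk2, the inducible hexokinase of muscle, was at 21.1 FPKM in KO and 14.4 FPKM in WT, a log2 ratio of 0.52 that 2.08% of expressed genes reached. Hk1, the more widely expressed form, was at 46.5 FPKM in KO and 47.4 FPKM in WT. Hk2 therefore made up 31.2% of hexokinase FPKM in KO and 23.3% in WT. Gpi1, which turns glucose 6-phosphate into fructose 6-phosphate, was at 110.2 FPKM in KO and 103.8 FPKM in WT.

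All 3 phosphofructokinase genes had ratios above 0. Pfkp, the platelet form, was the highest in both libraries and the furthest apart, at 83.8 FPKM in KO and 68.7 FPKM in WT (log2 ratio 0.28). The liver form Pfkl was at 60.2 FPKM in KO and 57.7 FPKM in WT, and the muscle form Pfkm at 42.4 FPKM in KO and 41.6 FPKM in WT. Pfkp made up 45.0% of the sum in KO and 40.9% in WT. Summed over the transporters, hexokinases, Gpi1 and phosphofructokinases, the 9 genes of uptake and commitment reached 511 FPKM in KO and 453 FPKM in WT.

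The bifunctional enzymes of the Pfkfb family set the level of fructose 2,6-bisphosphate, the activator of phosphofructokinase. All 4 genes were low and all 4 were higher in KO. Pfkfb3, the inducible form with high kinase activity, was at 2.45 FPKM in KO and 0.979 FPKM in WT, a log2 ratio of 0.80 and a plain FPKM ratio of 2.50. It rested on between 60 and 194 fragments in KO and between 19 and 61 in WT, depending on the transcript taken for its length. Pfkfb2, the heart form, was at 3.03 FPKM in KO and 2.54 FPKM in WT and remained the highest of the family. Its share of the family was 43.4% in KO and 56.4% in WT, and that of Pfkfb3 was 35.1% in KO and 21.7% in WT, the widest change of any share measured here. Pfkfb1, the liver and muscle form, was at 0.989 FPKM in KO and 0.622 FPKM in WT, and Pfkfb4 at 0.507 FPKM in KO and 0.364 FPKM in WT. Pfkfb1 rested on at most 31 fragments in KO and 15 in WT. With a pseudocount of 5 FPKM in place of 1, the log2 ratio of Pfkfb3 was 0.32, and with 0.1 it was 1.24.

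Aldolase was almost wholly Aldoa, the muscle form, which was at 694 FPKM in KO and 754 FPKM in WT. Aldoc, known as the brain form, was at 5.29 FPKM in KO and 2.56 FPKM in WT. Its log2 ratio of 0.82 was the furthest above WT among the 34 genes on the scale with the added 1. By plain FPKM ratio, Pfkfb3 at 2.50 was further from WT than Aldoc at 2.07. Its share of aldolase FPKM was 0.757% in KO and 0.338% in WT. Aldoc rested on between 148 and 243 fragments in KO and between 57 and 93 in WT. Tpi1, which interconverts the triose phosphates made by aldolase, was at 246 FPKM in KO and 295 FPKM in WT (log2 ratio -0.26).

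From Gapdh onward the abundant enzymes did not share 1 direction. Gapdh, which oxidises glyceraldehyde 3-phosphate and is often used as a reference gene, was at 1445 FPKM in KO and 1286 FPKM in WT (log2 ratio 0.17). Pgk1, the first ATP-making step, was at 630 FPKM in KO and 620 FPKM in WT. Pgam1, the widely expressed phosphoglycerate mutase, was at 163 FPKM in KO and 235 FPKM in WT (log2 ratio -0.53), a ratio that 5.14% of expressed genes reached or passed on the lower side. Its muscle paralogue Pgam2 was at 273 FPKM in KO and 259 FPKM in WT. The muscle form thus made up 62.6% of mutase FPKM in KO and 52.4% in WT. A single factor per library leaves this difference of 10.2 percentage points unchanged and quantile normalization made it 9.40 points, but the difference depends on how reads shared by Pgam1 and its pseudogene copies were placed.

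Enolase was lower in KO in both of its abundant forms. Eno1, the widely expressed form, was at 226 FPKM in KO and 313 FPKM in WT (log2 ratio -0.47), and Eno3, the muscle form, at 118 FPKM in KO and 147 FPKM in WT (log2 ratio -0.32). The neuronal form Eno2 was at 1.53 FPKM in KO and 1.39 FPKM in WT. Shares within the step were close, with Eno1 at 65.5% in KO and 67.9% in WT, so that the muscle and general forms of enolase did not part as those of the mutase did. The ratio of Gapdh to Eno1, taken within each library, was 6.41 in KO and 4.11 in WT. This ratio and the contrast with the mutase depend on how reads shared by Gapdh, Eno1 and Pgam1 with their copies were placed. Pyruvate kinase (Pkm) was at 547 FPKM in KO and 612 FPKM in WT. The table holds 1 value per gene, so that the M1 and M2 products of Pkm were not separated. Summed from aldolase to pyruvate kinase, 11 genes reached 4348 FPKM in KO and 4526 FPKM in WT.

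Some of these enzymes have near-identical copies in the mouse genome, which limits how well their reads can be placed. In GENCODE transcripts, 67.0% of the 100-base windows of Pgk1 occur unchanged in another annotated gene, 53.1% of those of Gapdh, 39.7% of those of Pgam1, 39.5% of those of Eno1 and 21.1% of those of Pfkfb2, shared with the annotated gene Gm29427. For Pdhb the share was 10.5%, for Pkm 7.52%, for Pfkm 7.43%, for Ldhb 6.44% and for Gpi1 4.68%. Tpi1 and Ldha had under 1% and the other 22 genes had none. The values of Pgk1, Gapdh, Pgam1, Eno1 and Pfkfb2 are uncertain for this reason. Of the Gapdh copies, 3 had a row, the highest of them Gm12070 at 42.7 FPKM in KO and 39.7 FPKM in WT. The intronless Eno1 copy Gm5506 (now Eno1b) was at 8.46 FPKM in KO and 12.97 FPKM in WT, and the ratio of Eno1 to it was 26.7 in KO and 24.1 in WT. The pseudogene copy Pgam1-ps2 alone held 39.7% of the windows of Pgam1. It had no row under that symbol, so its level was not read.

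Lactate dehydrogenase was lower in KO in both forms. Ldha, the form that favours lactate production, was at 611 FPKM in KO and 719 FPKM in WT (log2 ratio -0.23), and Ldhb, the form of oxidative heart muscle, at 115 FPKM in KO and 151 FPKM in WT (log2 ratio -0.40). Ldha held 84.2% of the step in KO and 82.6% in WT. The lactate and pyruvate carriers went apart: Slc16a1 (MCT1) was at 38.7 FPKM in KO and 48.0 FPKM in WT (log2 ratio -0.31), and Slc16a3 (MCT4), the exporter of highly glycolytic cells, at 34.6 FPKM in KO and 32.04 FPKM in WT (log2 ratio 0.11). Slc16a3 made up 47.2% of the pair in KO and 40.01% in WT.

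The entry of pyruvate into the mitochondrion held the gene furthest below WT. Pdhb, the beta subunit of the E1 enzyme of pyruvate dehydrogenase, was at 73.7 FPKM in KO and 133.9 FPKM in WT, a log2 ratio of -0.85. Of all expressed genes, 0.678% had a ratio as low or lower. Its partner Pdha1, the alpha subunit of the same tetramer, was at 138 FPKM in KO and 152 FPKM in WT. Within each library, Pdha1 exceeded Pdhb 1.88 times in KO and 1.14 times in WT. Pdhb was at least 1.5-fold lower under each of the 9 alternatives tried, with log2 ratios from -0.86 to -0.67. Those that changed only the filter leave its ratio as it was.

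The pyruvate dehydrogenase kinases parted by level. The abundant kinases were Pdk3 and Pdk1, of which Pdk1 is a known target of hypoxia-inducible factor, with Pdk3 at 68.7 FPKM in KO and 78.6 FPKM in WT and Pdk1 at 58.0 FPKM in KO and 66.0 FPKM in WT. Both were slightly lower in KO, with log2 ratios of -0.19 and -0.18. The low kinases were higher in KO: Pdk4, which is induced by fasting and fatty acids in adult muscle, was at 3.71 FPKM in KO and 2.54 FPKM in WT (log2 ratio 0.41), and Pdk2 at 5.32 FPKM in KO and 3.92 FPKM in WT (log2 ratio 0.36). Together Pdk2 and Pdk4 remained a minor part, since Pdk1 and Pdk3 held 42.7% and 50.6% of the sum in KO and 43.7% and 52.0% in WT. The 4 kinases summed to 136 FPKM in KO and 151 FPKM in WT, beside 212 FPKM in KO and 286 FPKM in WT for the E1 subunits.

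**Figure D4:**
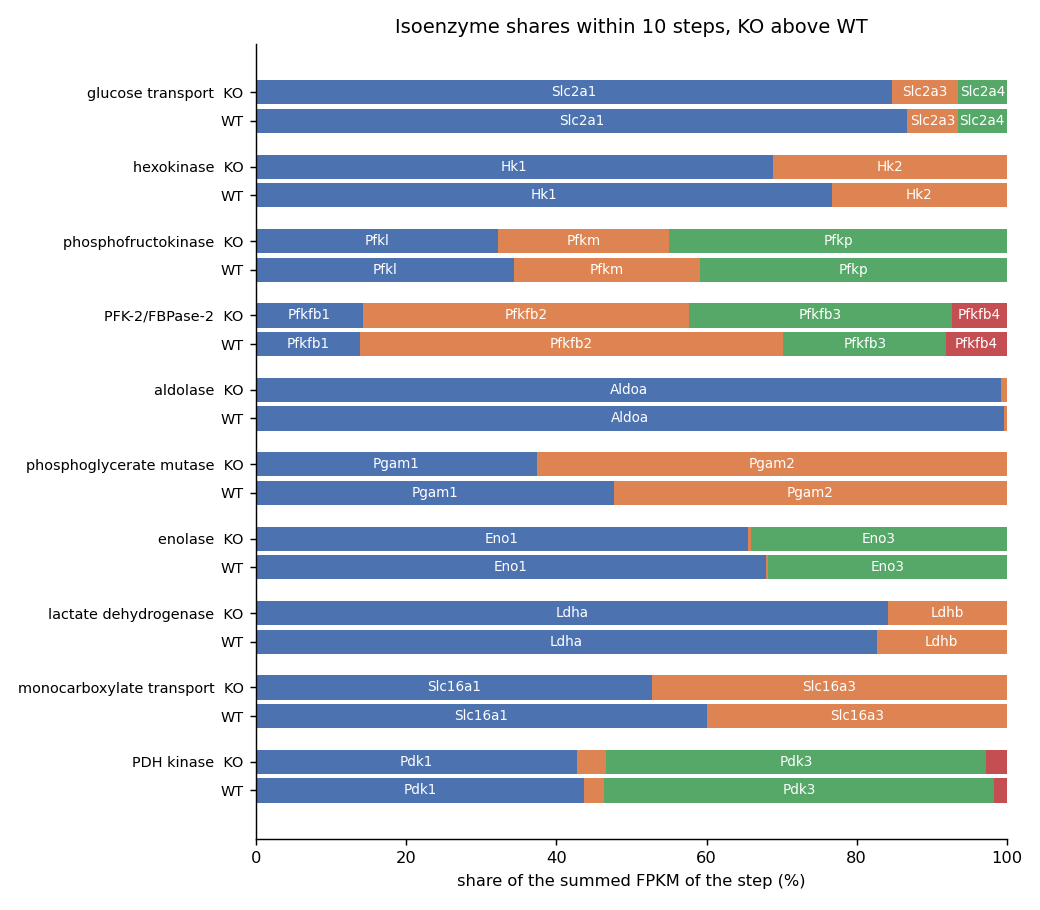
Share of each isoenzyme gene in the summed FPKM of its step (percent), for the 10 steps with several isoenzyme genes, with the KO bar above the WT bar. The widest differences are in the Pfkfb family (Pfkfb3 at 35.1% in KO and 21.7% in WT), phosphoglycerate mutase (Pgam2 at 62.6% and 52.4%) and hexokinase (Hk2 at 31.2% and 23.3%).

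By step, 7 of 16 step sums were above and 9 below WT. Above were glucose transport, hexokinase, Gpi1, phosphofructokinase, the Pfkfb family, Gapdh and Pgk1. On this scale 67.0% of all expressed genes were below WT, and the log2 ratios of the aldolase and monocarboxylate transporter sums, -0.11 and -0.13, were near the general median of -0.11. The lowest step sums relative to WT were pyruvate dehydrogenase E1 (ratio of FPKM sums 0.741), enolase (0.747), Tpi1 (0.834) and lactate dehydrogenase (0.834).

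The X chromosome carries 4 of the genes, Pgk1, Pdha1, Pdk3 and Pfkfb1. Xist, the RNA of the inactive X, was near 0 in both libraries, at 0.0677 FPKM in KO and 0.0454 FPKM in WT. The X-linked genes went different ways as deposited, with Pfkfb1 and Pgk1 higher and Pdk3 lower in KO. Pgk1 was nearly level, with a log2 ratio of 0.023 and 67.0% of its windows shared with copies. Pfkfb1 rested on at most 31 fragments in KO and 15 in WT.

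Promoter sequences from RefSeq (GRCm38.p6, 250 bases before to 50 after a transcription start) were held for 32 of the 34 genes, in 51 windows. They are printed for the genes furthest above and below the median, because hypoxia-inducible factors bind a core of ACGTG or else GCGTG that is known from several glycolytic promoters. Capitals mark ACGTG and its reverse complement CACGT, and likewise GCGTG and its reverse complement CACGC. Each window is written 5′ to 3′ on the strand of its gene, and for Aldoc and Pfkfb3, which have 2 windows each, the upstream one is shown. Aldoc lies at chr11:78322823-78323122 (plus strand), Pfkfb3 at chr2:11553880-11554179 (minus strand), Pdhb at chr14:8172943-8173242 (minus strand) and Pgam1 at chr19:41911621-41911920 (plus strand).
Aldoc: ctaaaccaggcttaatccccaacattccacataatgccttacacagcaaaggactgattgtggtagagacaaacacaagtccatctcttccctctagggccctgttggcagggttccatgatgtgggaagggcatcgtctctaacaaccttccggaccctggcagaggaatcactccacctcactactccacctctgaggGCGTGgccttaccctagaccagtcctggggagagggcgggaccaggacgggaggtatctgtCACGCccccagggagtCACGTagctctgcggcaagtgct
Pfkfb3: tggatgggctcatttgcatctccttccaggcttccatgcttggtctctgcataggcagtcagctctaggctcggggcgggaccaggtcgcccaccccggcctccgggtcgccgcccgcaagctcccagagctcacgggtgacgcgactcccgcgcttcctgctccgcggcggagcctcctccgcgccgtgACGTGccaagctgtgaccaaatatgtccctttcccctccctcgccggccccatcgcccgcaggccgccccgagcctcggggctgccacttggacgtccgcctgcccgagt
Pdhb: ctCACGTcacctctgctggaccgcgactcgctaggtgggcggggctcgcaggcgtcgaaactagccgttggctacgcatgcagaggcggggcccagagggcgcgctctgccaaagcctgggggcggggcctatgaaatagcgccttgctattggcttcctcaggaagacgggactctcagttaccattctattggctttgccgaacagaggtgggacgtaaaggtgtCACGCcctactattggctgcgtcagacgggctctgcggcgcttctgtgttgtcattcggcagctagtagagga
Pgam1: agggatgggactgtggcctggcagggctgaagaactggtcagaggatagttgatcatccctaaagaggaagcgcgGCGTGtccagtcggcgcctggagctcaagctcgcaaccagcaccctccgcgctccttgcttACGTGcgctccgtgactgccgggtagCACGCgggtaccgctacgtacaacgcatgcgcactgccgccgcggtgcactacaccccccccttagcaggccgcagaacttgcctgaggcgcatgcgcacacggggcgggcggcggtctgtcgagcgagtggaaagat

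The core was found on both sides of the ratio. Aldoc and Pgam1 held 3 matches each, Pdhb 2 and Pfkfb3 1. ACGTG or its reverse complement lay in 22 of the 51 windows (43.1%), against 26.2% of 10673 windows of expressed genes and 19.6% of all 32851 windows. GCGTG lay in 54.9% of the 51 windows and 51.4% of those of expressed genes. Among expressed genes of the pathway, 11 of 18 with ACGTG and 6 of 12 without it lay above the median ratio of all genes. For GCGTG the split ran the other way, with 10 of 20 genes that held it and 7 of 10 that did not above that median. A match of 5 letters is a description of the window and shows no binding.

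Genes of neighbouring pathways were read beside these. Of the remaining pyruvate dehydrogenase and pyruvate carrier genes, 11 were expressed, none was 1.5-fold apart and 6 lay below the median of all genes. Pdhx, the E3-binding protein of the complex, was at 21.9 FPKM in KO and 30.3 FPKM in WT, the phosphatase gene Pdp2 at 1.67 FPKM in KO and 2.71 FPKM in WT, and Dld, the E3 subunit, at 128.7 FPKM in KO and 137.2 FPKM in WT. Bsg, the chaperone of the monocarboxylate transporters, was higher, at 468 FPKM in KO and 432 FPKM in WT. In the tricarboxylic acid cycle, 13 of 15 genes had a ratio below 0, as had 67.0% of all genes, and their median ratio was -0.24. Sdhb, a subunit of succinate dehydrogenase, was the 1 gene at least 1.5-fold lower, at 133 FPKM in KO and 205 FPKM in WT. Fumarase (Fh1) was at 106 FPKM in KO and 151 FPKM in WT.

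Of the cytosolic side branches, the pentose phosphate pathway held a gene at the 2-fold limit. Pgls, its lactonase, was at 16.9 FPKM in KO and 35.0 FPKM in WT (log2 ratio -1.003), while the transaldolase gene Taldo1 was at 68.9 FPKM in KO and 85.3 FPKM in WT and Rpia at 5.46 FPKM in KO and 4.53 FPKM in WT. Among 15 expressed glycogen genes none was 1.5-fold apart and 7 lay above the median, with the primer protein gene Gyg at 158.8 FPKM in KO and 153.4 FPKM in WT and the phosphoglucomutase gene Pgm2 at 95.2 FPKM in KO and 96.5 FPKM in WT. The muscle phosphorylase Pygm was at 44.3 FPKM in KO and 58.4 FPKM in WT, and the liver form Pygl at 28.0 FPKM in KO and 24.2 FPKM in WT. Of the 9 expressed genes of the NADH shuttles, 2 lay above the median and none was 1.5-fold apart. The list's median was -0.15, against -0.11 for all genes and -0.15 for all genes at 20 to 100 FPKM, where most of the list lies. Mdh1, the cytosolic malate dehydrogenase, was at 256 FPKM in KO and 367 FPKM in WT, its mitochondrial partner Mdh2 at 71.7 FPKM in KO and 78.1 FPKM in WT, and the glycerol 3-phosphate dehydrogenase-like gene Gpd1l at 3.46 FPKM in KO and 5.25 FPKM in WT. The small group of gluconeogenesis, hexosamine and polyol genes had 5 of 6 above the median, with the aldose reductase gene Akr1b3 at 27.0 FPKM in KO and 22.4 FPKM in WT, the sorbitol dehydrogenase gene Sord at 22.3 FPKM in KO and 24.9 FPKM in WT, and Gfpt2, an entry enzyme of hexosamine synthesis, at 4.07 FPKM in KO and 3.15 FPKM in WT.

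**Figure D5:**
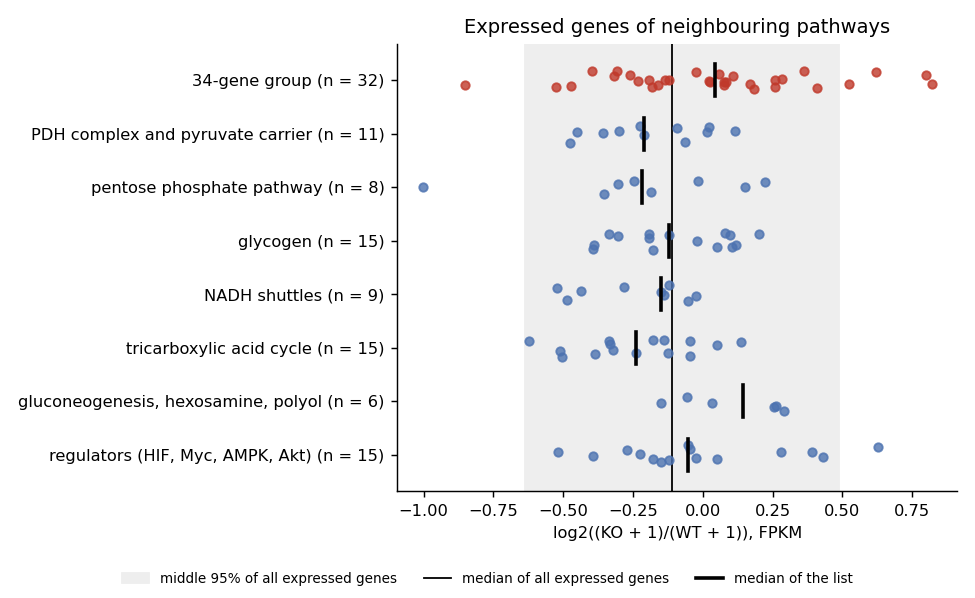
Log2 ratio of KO to WT on the log2(FPKM + 1) scale for each expressed gene of the glycolysis group (red) and of 7 neighbouring gene lists (blue), with the median of each list as a bar and the middle 95% of all expressed genes shaded. The glycolysis group has the widest range, from -0.85 to 0.82, but also the most genes, and a range widens with the number of genes. The medians of 5 of the 7 other lists lie below the median of all genes, from -0.12 (glycogen) to -0.24 (tricarboxylic acid cycle). The median of all genes also falls with level, to -0.15 at 20 to 100 FPKM and -0.18 at 100 FPKM and over.

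Other isoenzymes of the same steps were hardly present. Of 25 such genes, 5 reached a mean of 1 FPKM, and hepatic or germ-cell forms such as Slc2a2, Pgk2 and Ldhc were listed at 0 in both libraries. The highest was Pgam5, a mitochondrial phosphatase named for its similarity to the mutases, at 13.9 FPKM in KO and 20.9 FPKM in WT. Adpgk, an ADP-dependent glucokinase, was at 6.37 FPKM in KO and 8.38 FPKM in WT, and the transporter gene Slc2a8 at 1.49 FPKM in KO and 1.21 FPKM in WT. Among 15 expressed regulators of the pathway, 1 was at least 1.5-fold higher, the oxygen-sensing hydroxylase gene Egln3, at 6.86 FPKM in KO and 4.08 FPKM in WT. Arnt, the partner of the hypoxia-inducible factors, was at 5.12 FPKM in KO and 3.53 FPKM in WT, and Hif1a, whose activity is known to be set mainly at the protein level, at 115 FPKM in KO and 128 FPKM in WT. The kinase gene Akt1, which acts in insulin signalling, was at 51.0 FPKM in KO and 57.8 FPKM in WT.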

How the data were processed

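FPKM values (1 per gene symbol and library) were used as the authors deposited them. Per the submitters' processing notes the build was mm9 and the tools named are Cufflinks 2.0.2, TopHat2 2.0.6 and Bowtie2 2.0.2, and the gene annotation is not given in the sources used here. Per the labels, reads were 100 bases from 1 end, and a filter on read length may have been applied to the WT run.

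Computed here were log2((KO + 1)/(WT + 1)) for genes averaging 1 FPKM or more, counts past 1.5-fold and 2-fold, sums per step and shares within a step. With 1 library per genotype no test was made. Mapped fragments were estimated from genes with 1 GENCODE vM21 transcript of over 1500 bases and under 0.6 FPKM: 73.7% of 308 genes in KO and 75.8% of 265 in WT lay within 0.1 of a whole number of fragments, against 34.0% and 28.0% at most with shifted steps. The annotation differs from that of the files, so these depths are approximate and no interval is given. Shared windows compare 100-base stretches of GENCODE transcripts (GRCm38), and no coordinates were converted.

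The genes and lists were chosen with earlier results of these data known. Named were all 34 genes and, of each neighbouring list, the 2 expressed genes with the highest mean and the 2 furthest from the median of all genes; Ddx3y, Xist and the rows of near-identical copies are named as checks, and genes listed at 0 as examples. A gene that this rule selects is not reported here. The ratio and scaling procedures were tested on simulated data, with changes planted only in genes of at least 5 FPKM and no sampling of fragments. That test does not cover lower genes such as Pfkfb3 and Aldoc. Python 3.11.15, numpy 2.4.6, pandas 2.3.3 and matplotlib 3.10.9 were used.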

Additional observations from a re-analysis of the deposited data

How the results depend on the processing

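No paired analysis was possible because there is 1 library of each genotype, and leaving a library out was not possible either. The 9 alternatives were pseudocounts of 0.1 and 5 FPKM, no filter, a minimum mean of 5 FPKM, and 5 other scalings (median centring, upper quartile, quantile normalization, totals without the 100 most abundant genes, and a mean trimmed by 30% in ratio and 5% in level). The count of genes at least 1.5-fold higher, 3 as reported, was 0 with a pseudocount of 5 and 1 at a minimum mean of 5 FPKM, where Pfkfb3 and Aldoc are not counted. The share of all genes this much higher was 0.53% with the pseudocount of 5 and 1.13% at the minimum mean of 5 FPKM. It was 1.54% as reported. With a pseudocount of 0.1, 2 genes (Pfkfb3 and Aldoc) were at least 2-fold higher, against none as reported. The share of all genes past 2-fold was not counted with that pseudocount. Under each of the 5 other scalings 4 genes were at least 1.5-fold higher and 1 was lower. Of all genes, 2.34% to 2.78% were this much higher and 1.62% to 1.89% this much lower under these scalings. The count above the median of all genes ranged from 14 (of 26 genes, at a minimum mean of 5) to 20, and the median of the group from 0.062 to 0.17 above that of all genes. Of 306 log2 ratios of single genes under the alternatives, 159 moved by more than 0.1, and no gene past 1.5-fold changed sign. The changes of filter leave each single ratio as it was, and a pseudocount cannot alter a sign. The 5 other scalings raised KO relative to WT for most genes, so a ratio above 0 could hardly turn negative. Their shifts were also small beside the 1.5-fold limit. Signs kept under the alternatives are therefore no separate check of direction. Among isoenzyme shares, the KO minus WT difference of Pfkfb3 was 13.4 percentage points as reported and 13.3 under quantile normalization, that of Pfkfb2 -13.0 and -11.3, and that of Pfkfb1 0.40 and -0.55. Low counts of fragments limit Pfkfb1 and Pfkfb4 most.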
